A study of Mus musculus with 13 samples.

Results

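Cultured cortical glia that had received a lentivirus with Foxa2 and Nurr1, the product of Nr4a2 (together N+F), were compared with cortical glia that had received a control lentivirus, and both cultures were treated with amyloid beta. The comparison used 2 of the 13 libraries of a series on delivery of this pair of factors in a mouse model of Alzheimer disease. The glia were taken from postnatal day 1 pups of ICR mice, an outbred strain. Hippocampal glia under the same 2 conditions, and a control-virus culture of each region without amyloid beta (labelled untreated), gave 4 further libraries that are used below for reference only. Every culture condition was 1 library, so no difference within the cortical pair has a replicate check or a p-value. The promoter of the lentiviral genes, the share of cells that took them up, the time in culture and the number of pups pooled are not stated. The genes described are those that reached 1 CPM (a gene's counts as a share of the library total, put on a common scale) in at least 1 of the cortical pair, which were 13999 of 24542 symbols. A difference is given as the log2 ratio of (CPM + 1) in the N+F library to that in the control library, and "higher" or "lower" in a count means at least 2-fold on that scale.

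Nurr1 is an orphan nuclear receptor of the NR4A family, known in glia as a repressor of inflammatory genes that NF-kB switches on. Foxa2 is a forkhead transcription factor that opens chromatin, first known from the floor plate and from endoderm. Both act in the specification and upkeep of midbrain dopamine neurons. Primary glial cultures from newborn brain consist mainly of astrocytes, with microglia, oligodendrocyte precursors and some fibroblasts of meninges and vessels, and amyloid beta is the peptide of Alzheimer plaques, used in such cultures to activate glia.

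The control library held 60721684 counts and the N+F library 78273121, and the other 4 culture libraries held 52189025 to 74717389. At this depth 95% counting intervals (exact Clopper-Pearson method) were taken for the log2 ratio of scaled counts, without the added 1 CPM. The median interval reached 0.34 to either side for genes of 1 to 10 CPM, 0.096 for 10 to 100 CPM and 0.042 above that. Genes with 3 counts or fewer in either cortical library were left out of these medians. Such intervals cover counting error only, not the variation between cultures. Astrocyte markers were high in both cortical libraries, with a sum over 12 genes of 13673 CPM in the control and 8469 CPM in the N+F library. The N+F library stood apart by fibroblast genes. The 16 mural and fibroblast markers summed to 2849 CPM in the control and 17068 CPM in the N+F library, and to 3935 and 5042 CPM in the hippocampal pair. Most of the sum in the cortical N+F library came from matrix genes of the list, Fn1 (6774 CPM), Col1a2 (3030 CPM), Col1a1 (2894 CPM) and Col3a1 (2033 CPM). Among 14 markers of meningeal fibroblasts, 11 passed the 1 CPM filter, and 9 were higher and 1 lower. The largest ratios were those of the transcription factor genes Zic1 (0.527 to 102 CPM), Foxd1 (0.0329 to 33.9 CPM) and Tbx18 (0.165 to 35.8 CPM) and of Aldh1a2, which makes retinoic acid (0 to 19.8 CPM). The list's median log2 ratio was 4.20 in cortical and 0.32 in hippocampal glia. Its sum differed little, at 3646 CPM in the cortical control and 4083 CPM with N+F. In bulk RNA, a different number of cells of a type and a different amount of RNA per cell cannot be told apart. The part of fibroblasts in the differences below was not tested. The sum of mural and fibroblast markers is largely made of matrix genes described below, so it is not separate from their values.

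**Figure D1:**
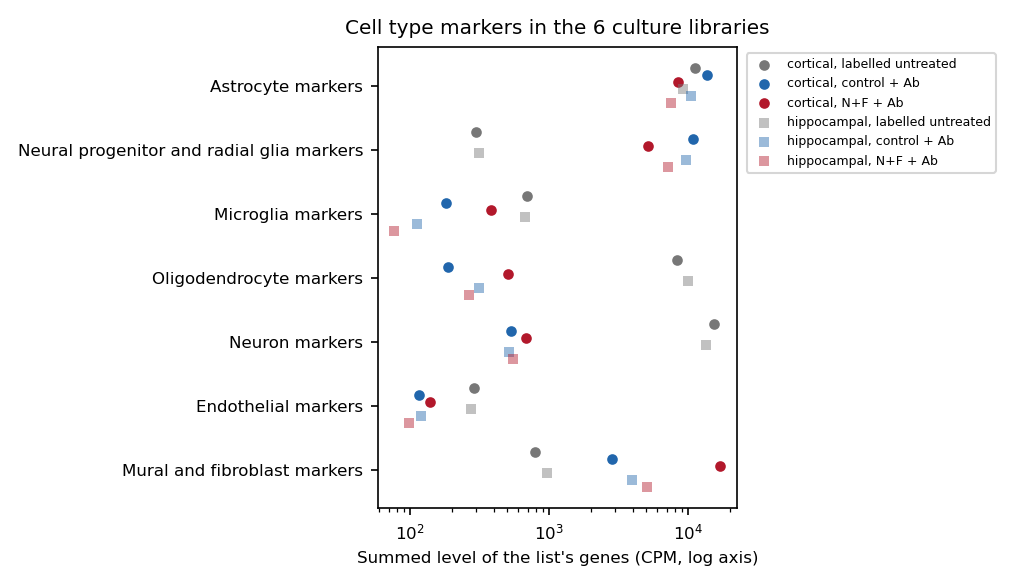
Summed level of 7 marker lists (CPM, log axis) in the 6 culture libraries, with 1 point per library (circles, cortical; squares, hippocampal; grey, labelled untreated; blue, control virus with amyloid beta; red, N+F with amyloid beta). The cortical N+F library lies alone at 17068 CPM of mural and fibroblast markers, a sum made mostly of Fn1, Col1a1, Col1a2 and Col3a1. Both libraries labelled untreated lie far from the other 4 in neuron and oligodendrocyte markers.

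The cortical library labelled untreated went against that label as a glial culture. Its 14 neuron markers summed to 15338 CPM, against 530.1 in the control and 679 in the N+F library, and its oligodendrocyte markers summed to 8277 CPM, against 188 and 503. Vimentin, an intermediate filament gene of cultured astrocytes, was at 38.4 CPM there and at 8701 CPM in the control. The hippocampal library labelled untreated was alike, with neuron markers at 13501 CPM against 518 in the hippocampal control and oligodendrocyte markers at 9902 against 315 CPM. Vimentin was at 45.3 CPM there and at 8054 CPM in the hippocampal control. The values of these 2 libraries are therefore not read as a baseline.

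In the cortical pair 1799 genes (12.9%) were at least 2-fold higher with N+F and 2110 (15.1%) at least 2-fold lower, and 565 (4.04%) and 272 (1.94%) differed at least 4-fold. Higher genes made up 46.0% of these calls with scaling by the library total. With TMM scaling the split was 2189 higher to 1601 lower (57.8% higher), and with DESeq2 size factors 2337 to 1455 (61.6% higher), since these scalings move the median of all genes up by 0.16 and 0.22 on the log2 scale. The median log2 ratio of all genes was -0.16, and the 10th and 90th percentiles were -1.21 and 1.19. In hippocampal glia, under the same rule, 773 of 13814 genes (5.6%) were higher and 106 (0.767%) lower, and the percentiles were -0.33 and 0.73. The cortical pair thus differed over a wider range than the hippocampal pair, a description of 4 libraries without a test. List counts below stand beside the 12.9% higher and 15.1% lower of all cortical genes. A count near those shares is not a result about its list.

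**Figure D2:**
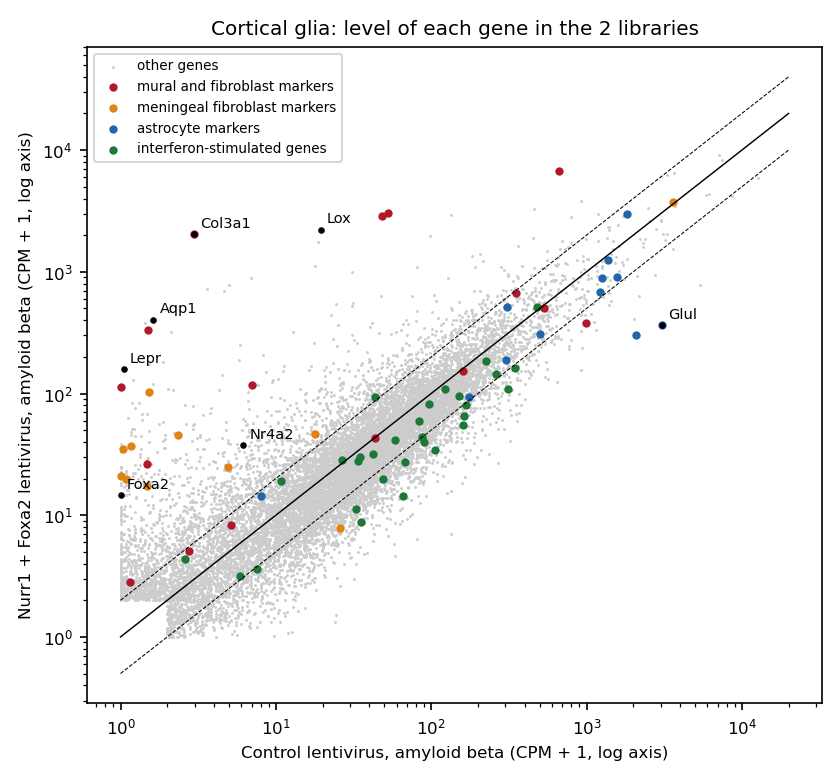
Level of the genes described (of 13999 that passed) in the cortical control library (x axis) and the cortical N+F library (y axis), both as CPM + 1 on log axes, with equality as a solid line and 2-fold differences as dashed lines. Of 16 mural and fibroblast markers 9 lie above the upper dashed line, 25 of 30 interferon-stimulated genes lie under the line of equality, and Glul lies well under it.

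Both delivered genes were present in the N+F library. Nr4a2 was at 5.14 CPM in the control and 36.9 CPM in the N+F library, a 7.19-fold difference (95% counting interval 6.39 to 8.10). These are sums over the lines of the symbol, and the lines differed. The line with the most counts had 0 counts in the control and was at 28.0 CPM with N+F, at least 566-fold higher against a floor of 3 counts, and the other line was at 5.14 and 8.94 CPM, a 1.74-fold difference. With the highest line alone the log2 ratio of (CPM + 1) was 4.99, against 2.63 for the sum. In hippocampal glia the summed gene was at 3.35 and 488 CPM, so its level with N+F was lower in cortical glia. Foxa2 had 0 counts in the control and 13.5 CPM with N+F, at least 274-fold higher against a floor of 3 counts, and it reached 140.3 CPM in hippocampal N+F glia. Whether the viral transcripts carry the sequence that was counted is not stated. Of the relatives of the delivered genes, Nr4a1, an immediate early gene of the same receptor family, was at 1.80 and 19.5 CPM (log2 ratio 2.87), and Nr4a3 at 1.10 and 2.99 CPM (0.92). Among genes of midbrain dopamine neurons and the floor plate, 8 of 18 passed the filter, 4 were higher and 0 lower. These were Msx1 (0.774 to 22.6 CPM) and Bnc2 (0.494 to 15.4 CPM), which meningeal cells also express, the homeobox gene Lmx1b (0 to 1.75 CPM) and Gch1, which makes the cofactor of dopamine synthesis (6.75 to 15.0 CPM). Of the 26 endoderm and liver genes tied to FOXA factors 3 passed, with Krt19 (0 to 4.27 CPM) and Gata6 (0.0494 to 1.90 CPM) higher and Muc1 (4.74 to 1.48 CPM) lower.

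**Figure D3:**
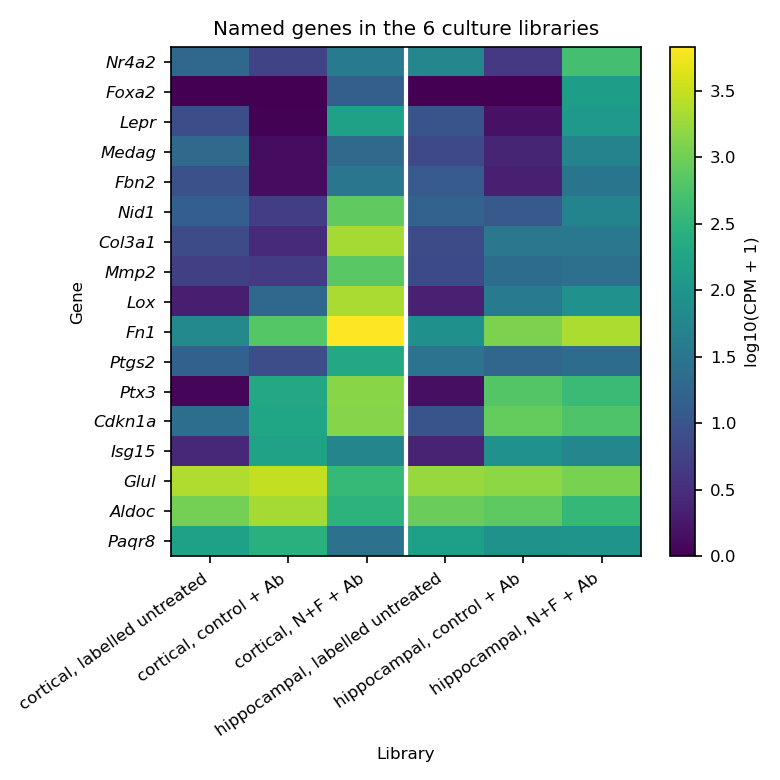
Level of 17 named genes (rows) in the 6 culture libraries (columns), as log10 of (CPM + 1), with cortical libraries left and hippocampal libraries right of the white line. Foxa2 is dark in every library without N+F, and Col3a1, Mmp2 and Lox are brightest in the cortical N+F library.

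Col3a1 led the 12 genes with the highest log2 ratio. This fibrillar collagen was at 1.96 CPM in the control and 2033 CPM with N+F (log2 ratio 9.42), against 31.7 and 33.6 CPM in the hippocampal pair. Igf2, a fetal growth factor, was at 0.428 and 379.6 CPM, and H19, the noncoding gene beside it in the same imprinted cluster, at 2.59 and 719 CPM. Neither differed by 2-fold in hippocampal glia, where Igf2 was at 3.69 and 4.05 CPM and H19 at 13.02 and 12.02 CPM. The water channel gene Aqp1 was at 0.626 and 405 CPM, the small proteoglycan Dcn at 0.494 and 329 CPM, and the basement membrane protein Nid1 at 4.00 and 781 CPM. Also among the 12 were the collagen receptor Mrc2 (log2 ratio 7.24), the gelatinase Mmp2 (7.24), the leptin receptor Lepr (7.23), the matrix protein Fbln2 (6.99) and Lox, which crosslinks collagen and elastin (6.83). Sap18b (6.85) is a near-identical copy of Sap18, so that reads may be split between them. Sap18b and Sap18 together were at 324 CPM in the control and 215 CPM with N+F, and the value of Sap18b alone is uncertain.

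Most collagen and matrix protease genes were higher. The sum of mural and fibroblast markers (17068 CPM against 2849 CPM) is not a separate observation, since it is largely made of Fn1, Col1a1, Col1a2 and Col3a1. Of 30 collagen genes, 22 were higher and 2 lower, with a median log2 ratio of 1.89 against -0.16 over all genes. Col1a1 was at 47.0 CPM in the control and 2894 CPM with N+F, and Col6a3 at 0.231 and 74.7 CPM. In hippocampal glia 5 of 30 collagens were higher, the median was 0.21, and Col1a1 had a log2 ratio of 0.00. Of 22 matrix proteases and their inhibitors, 13 were higher and 2 lower (median 1.48). The macrophage elastase Mmp12 was at 0.165 and 47.5 CPM, the stromelysin Mmp3 at 5.63 and 86.1 CPM and the gelatinase Mmp9 at 1.25 and 26.4 CPM. Fibronectin, Fn1, was the most abundant of the matrix genes named here, at 664 CPM in the control and 6774 CPM with N+F, and Thbs2, a matrix glycoprotein of astrocytes and fibroblasts that promotes synapse formation, was at 17.7 and 1749 CPM. Among 16 synaptogenic astrocyte factors 3 were higher and 1 lower (median 0.16), the others higher being the proteoglycan Vcan (3.28) and the postsynaptic adhesion gene Nlgn2 (1.02), while the brain proteoglycan Bcan was lower (-1.23). Of the 16 mural and fibroblast markers themselves, 9 were higher, 1 was lower and 6 were within 2-fold. The higher ones included Col3a1, Col1a1, Dcn and Lum (0 to 113 CPM), and these lists overlap.

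**Figure D4:**
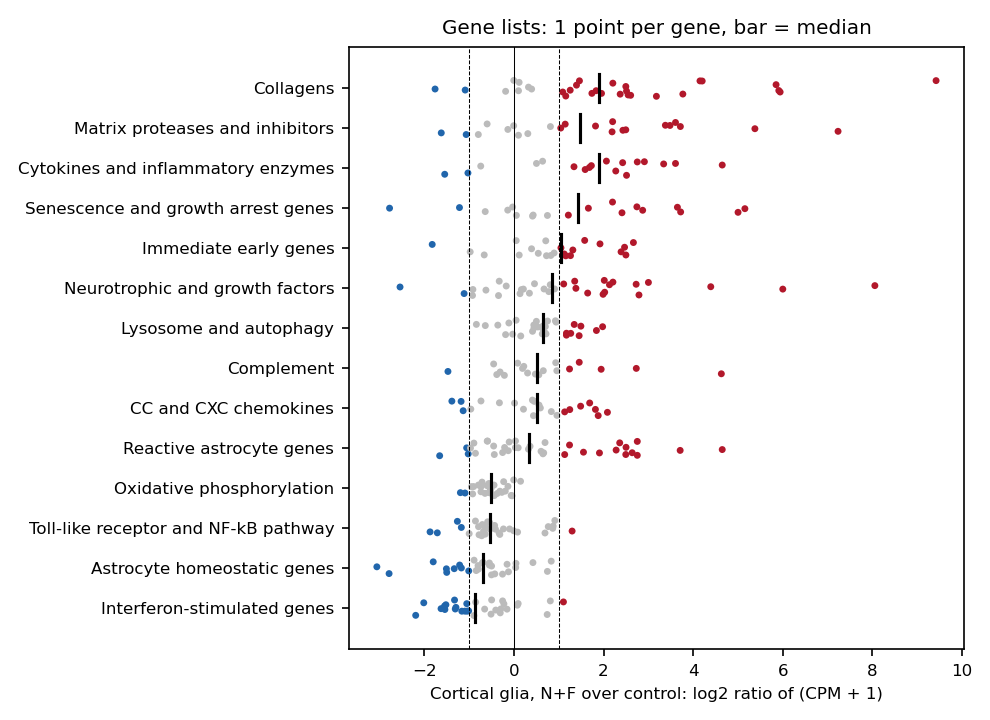
Cortical log2 ratio of (CPM + 1), N+F over control, for the reported genes of 14 lists, with 1 point per gene, a bar at each list's median and dashed lines at 2-fold (red, at least 2-fold higher; blue, at least 2-fold lower). Collagens, matrix proteases and cytokines lie mostly to the right, and astrocyte homeostatic and interferon-stimulated genes mostly to the left.

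Lists of inflammatory genes were mixed. Of 18 cytokines and inflammatory enzymes that passed the filter, 13 were higher and 2 lower (median 1.90). Ptgs2, the inducible cyclooxygenase, was at 7.25 CPM in the control and 206 CPM with N+F, Il33, an alarmin of astrocytes and stromal cells, at 5.14 and 61.3 CPM, and the inducible nitric oxide synthase Nos2 at 1.68 and 19.2 CPM. Tnf, an early inflammatory cytokine, was lower, at 3.11 and 0.409 CPM. Of 22 chemokines 7 were higher and 3 lower (median 0.51), the lower count near the 15.1% of all genes. Ccl7, Ccl8, Ccl9 and Ccl19 were the 4 with the largest ratios (log2 2.09, 1.88, 1.82 and 1.69), and the neutrophil attractant Cxcl5 was lower in cortical (-1.39) and hippocampal glia (-1.05). Complement genes counted 6 higher and 1 lower of 20. The classical pathway component C2 at 3.33 and 106 CPM and the lectin pathway protease Masp1 at 3.59 and 29.5 CPM.

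Interferon-stimulated genes were more often lower than higher, while genes of the Toll-like receptor pathway were lower about as often as all genes. Of 30 genes of the Toll-like receptor and NF-kB pathway, 1 was higher and 4 lower (median -0.54), against 15.1% of all genes lower, so the lower count is not read as a result about this list. The lipopeptide receptor subunit Tlr1 was at 30.5 CPM in the control and 7.61 CPM with N+F, the kinase Ikbkb at 53.4 and 15.6 CPM and the adaptor Ticam1 at 31.8 and 12.7 CPM, while the flagellin receptor Tlr5 was at 0.263 and 2.11 CPM. This count depends on the scaling, with 4 higher and 4 lower under TMM and 4 higher and 3 lower under DESeq2 size factors. Of 30 interferon-stimulated genes 1 was higher and 14 were lower (median -0.87, against 0.02 in hippocampal glia). Parp14 was at 64.8 and 13.4 CPM, the nucleotide kinase Cmpk2 at 34.2 and 7.72 CPM, Ifit1, which binds viral RNA, at 105 and 33.2 CPM and Oas1a at 32.0 and 10.3 CPM. With TMM scaling 9 were lower (median -0.73) and with DESeq2 size factors 9 were lower (median -0.68). Antigen presentation genes were mixed, with 4 of 20 higher and 3 lower, against 12.9% and 15.1% of all genes. The costimulatory gene Cd80 was at 0.873 and 57.9 CPM, and the lower genes were the immunoproteasome subunits Psmb10 (-2.10) and Psmb9 (-1.26) and the class II chaperone Cd74 (-1.25).

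Genes of resting astrocytes were lower or within 2-fold. Of 28 astrocyte homeostatic genes 0 were higher and 9 lower, with a median of -0.70. TMM scaling left 8 lower (median -0.53) and DESeq2 size factors 6 lower with 1 higher (median -0.47). Glul, the glutamine synthetase that detoxifies glutamate, was at 3060.0 CPM in the control and 366 CPM with N+F, and at 1518 and 1158 CPM in the hippocampal pair. The glycolytic enzyme Aldoc was at 2081 and 300.5 CPM, the potassium channel Kcnj10 at 1149 and 329 CPM and the bicarbonate transporter Slc4a4 at 369.7 and 129 CPM. Not every astrocyte gene was lower, since the filament gene Gfap was at 1828 and 2957 CPM and the gap junction gene Gja1 at 305 and 512 CPM. Reactive astrocyte genes counted 13 higher and 3 lower of 36 (median 0.34). Besides Ptgs2 they included Emp1 (8.42 to 122 CPM), the matrix gene Fbln5 (21.3 to 149 CPM) and Ptx3, a secreted pentraxin (207 to 1399 CPM), of which fibroblasts also express several. Lcn2, the reactive astrocyte gene with the highest level in the N+F library, was at 7136 and 9155 CPM. Neural progenitor and radial glia markers had 0 higher and 4 lower of 11 (median -0.85), and 3 were lower under either other scaling. Among them were the eye and forebrain factor Pax6 (60.7 to 12.99 CPM), the lipid carrier Fabp7 (939.8 to 237 CPM) and vimentin (8701 to 4185 CPM).

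Microglia markers summed to more with N+F in cortical glia and to less in hippocampal glia, a difference that was not tested. The 14 microglia markers summed to 181 CPM in the cortical control and 385 CPM with N+F, but to 112 and 76.8 CPM in the hippocampal pair. In cortical glia 5 of 14 were higher and 1 lower (median 0.80), and in hippocampal glia 0 of 13 were higher and 6 lower (median -0.88). Tmem119 was at 0.362 CPM in the control and 6.84 CPM with N+F, the integrin Itgam at 10.5 and 50.3 CPM and the cathepsin Ctss at 14.4 and 59.8 CPM, whereas the fractalkine receptor Cx3cr1 was at 2.08 and 0.537 CPM. Disease-associated microglia genes counted 12 higher and 1 lower of 26 (median 0.92), with Ccl6 at 11.4 and 79.2 CPM, lipoprotein lipase Lpl at 2.27 and 17.2 CPM, osteopontin Spp1 at 449 and 1902 CPM and lysozyme Lyz2 at 310.4 and 956 CPM. Of 12 homeostatic microglia genes 4 were higher and 2 lower, with 6 ratios above and 6 below 0. The part of microglia in the counts of inflammatory, complement and lysosomal genes was not tested. Most leukocyte markers were near 0, with 3 of 16 passing the filter. The mannose receptor Mrc1 of border macrophages (3.80 to 12.5 CPM) and Cd4 (0.0659 to 1.81 CPM) were higher. Itgal (6.14 to 5.05 CPM) had a log2 ratio of -0.24, and of 1.56 with the highest line of its symbol alone.

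Oligodendrocyte genes were mostly higher, from low levels in the control. Of 11 markers 8 were higher and 1 lower (median 1.65, against -0.74 in hippocampal glia). The myelin gene Mbp was at 0.873 CPM in the control and 179.5 CPM with N+F, Cldn11 of the myelin tight junction at 0.346 and 33.8 CPM and Mag at 0.198 and 20.0 CPM. In the hippocampal pair Mbp was at 59.7 and 31.1 CPM, Cldn11 at 5.45 and 2.83 CPM and Mag at 6.29 and 2.55 CPM. The cortical control thus held less of each than the hippocampal control. Precursor markers were mixed, with 4 of 9 higher and 3 lower, as the proteoglycan Cspg4 (2.47), Lhfpl3 (2.18) and the growth factor receptor Pdgfra (2.06) were higher and the lineage factor Olig2 was lower (-2.21). Among 12 neuron markers 3 were higher and 2 lower. The early neuronal genes Dcx (log2 ratio -3.48) and Tubb3 (73.5 to 12.2 CPM) were lower, and Meg3, an imprinted noncoding gene not limited to neurons (9.65 to 91.3 CPM), and the neurofilament Nefm (1.09 to 10.9 CPM) were higher. Synaptic genes counted 3 higher and 3 lower of 24, near the shares of all genes (12.9% and 15.1%). Of 12 endothelial markers only 6 passed the filter, with 4 higher and 1 lower. The adhesion genes Cdh5 (0.181 to 49.9 CPM) and Esam (0.329 to 29.3 CPM) were among the higher ones. Slco1a4 was lower (107.7 to 34.4 CPM). Ependymal markers counted 0 higher and 0 lower of 9, Schwann and neural crest markers 3 and 0 of 7, and choroid plexus markers 2 and 1 of 6, while 0 of 7 erythroid markers passed the filter.

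Growth factor and growth arrest genes were more often higher than lower. Of 32 neurotrophic and growth factors 15 were higher and 2 lower (median 0.86). Besides Igf2 these included the keratinocyte growth factor Fgf7 (0.313 to 83.2 CPM), the stress cytokine Gdf15 (1.65 to 54.7 CPM) and the activin subunit Inhba (6.09 to 55.8 CPM), several of which connective tissue cells make. The part of fibroblast RNA in these values was not tested. Of 20 senescence and growth arrest genes 11 were higher and 2 lower (median 1.44, against -0.04 in hippocampal glia). Gadd45b, a stress response gene, was at 46.8 CPM in the control and 629 CPM with N+F. Igfbp6 (5.16) and Igfbp4 (5.003), which bind insulin-like growth factors, were higher too. Immediate early genes counted 12 higher and 1 lower of 23, with Egr1 at 10.8 and 74.1 CPM, Fos at 19.7 and 108 CPM and Klf4 at 5.75 and 36.4 CPM. Proliferation genes counted 7 higher and 2 lower of 30, with Ube2c (1.70), Bub1b (1.63) and Mki67 (1.33) higher and the cyclin Ccnd1 lower (-1.503). With TMM scaling and with DESeq2 size factors alike, 14 proliferation genes were higher and 1 lower.

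Of 30 nuclear genes of oxidative phosphorylation 0 were higher and 2 lower, and 29 of them had a ratio under 0 (median -0.52). Relative to TMM and DESeq2 scaling 5 and 6 of them had a ratio above 0, with medians of -0.36 and -0.30. Ndufb9, a complex I subunit, was at 98.7 CPM in the control and 42.5 CPM with N+F, and cytochrome c, Cycs, at 168 and 78.3 CPM. Glycolysis and lactate genes counted 4 higher and 2 lower of 23, with the lactate exporter Slc16a3 at 0.939 and 44.3 CPM, Pfkfb3, an activator of glycolysis, at 80.6 and 474 CPM and Eno2 at 35.7 and 127 CPM. Lysosome and autophagy genes counted 8 higher and 0 lower of 30 (median 0.64), with the hydrolases Gaa (135 to 488 CPM) and Lipa (54.4 to 155 CPM) and the sterol carrier Npc2 (229.7 to 632 CPM). Antioxidant genes counted 5 higher and 1 lower of 29, led by Nqo1 (2.77) and the ferritin light chain Ftl1 (2.05). Unfolded protein response genes counted 3 and 1 of 25. The higher counts of the glycolysis, antioxidant and unfolded protein response lists were near the 12.9% of all genes and are not read as results about these lists. Cholesterol genes counted 2 higher and 1 lower of 22, with a median of -0.19 that turned to 0.02 under DESeq2 size factors.

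Of 17 genes of amyloid precursor processing 1 was higher and 0 lower (median 0.20). The higher gene was Aplp1, a relative of the amyloid precursor (58.7 to 204 CPM). Genes of amyloid clearance and lipoproteins counted 10 higher and 3 lower of 22 (median 0.72). The scavenger receptor Cd36 was at 4.61 CPM in the control and 37.5 CPM with N+F and the plasminogen activator Plau at 3.64 and 22.7 CPM. The protease inhibitor A2m was lower, at 2030.4 and 411 CPM.

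The 12 genes with the lowest log2 ratio had no common list. Among them were Ndst3, which modifies heparan sulfate (23.02 to 0.332 CPM), Skida1 (23.4 to 0.511 CPM) and Fam212b (80.5 to 5.34 CPM). The granule protein Chgb of neuroendocrine cells was at 57.3 and 3.63 CPM, Glycam1 at 11.6 and 0.102 CPM and the progestin receptor gene Paqr8 at 270.3 and 25.7 CPM. Also among them were Dcx, the exocyst subunit Exoc8, Prokr1, Heatr3 and the kinase Nuak2, with log2 ratios of -3.48, -3.39, -3.31, -3.30 and -3.10. In hippocampal glia these named genes had ratios of -0.85 (Chgb) to 0.69 (Ndst3), so that none of them was 2-fold lower there.

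The hippocampal pair shares no library with the cortical pair. Of 13479 genes that passed in both, 279 (2.07%) were at least 2-fold higher in both regions, which is 15.5% of the cortical and 36.1% of the hippocampal higher genes. At least 2-fold lower in both were 16 (0.119%), or 0.758% of the cortical and 15.1% of the hippocampal lower genes. Over all cortical genes 12.9% were higher and 15.1% lower, the shares to set beside those of the hippocampal lists. Over all hippocampal genes 5.6% were higher and 0.767% lower, the shares to set beside those of the cortical lists. The overlap of lower genes is thus near the share of all genes and is not read as a result. Another 26 genes, of the 106 lower in hippocampal glia, were higher in cortical glia. The reverse held for 75 genes, of the 773 higher in hippocampal glia. A fit of all 6 culture libraries with region and condition as additive terms (edgeR quasi-likelihood test, 2 residual degrees of freedom) called 0 of 16762 genes at an adjusted p under 0.05, with 1156 at an unadjusted p under 0.05, while DESeq2 called 408 higher and 67 lower. That fit addresses the mean effect of N+F over both regions, not the cortical effect. It includes both libraries labelled untreated, which went against that label as glial cultures. They enter its estimate of the spread, so its 0 calls do not show that genes did not differ. With the 4 amyloid beta libraries alone edgeR called 3 genes, all higher, Foxa2, Kng1 and Nps (adjusted p = 0.0118, 0.0275 and 0.0179).

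**Figure D5:**
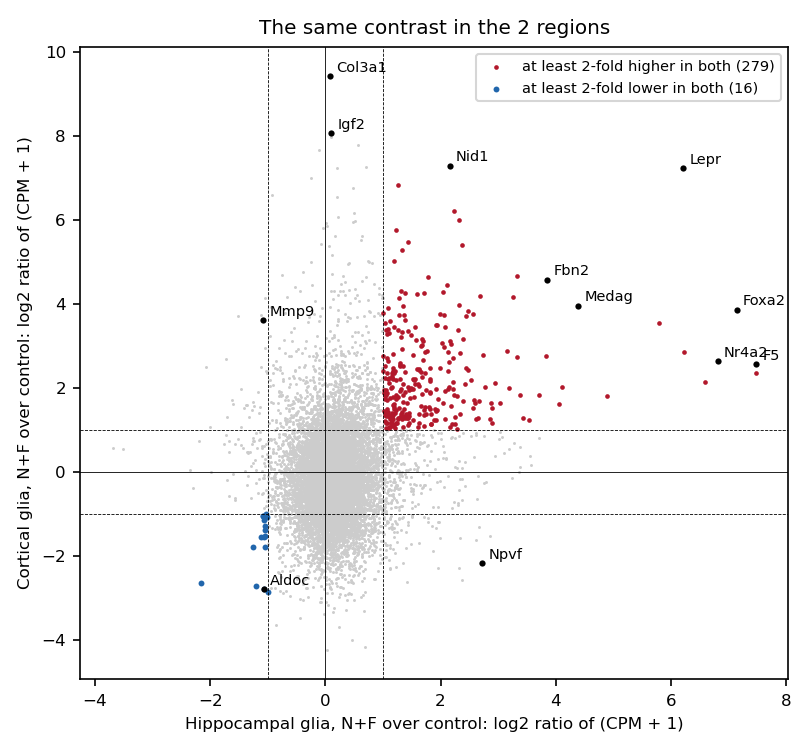
Log2 ratio of (CPM + 1), N+F over control, of the genes described (of 13479 that passed in both) in hippocampal glia (x axis) and cortical glia (y axis), with dashed lines at 2-fold differences. Lepr, Medag, Fbn2, Nr4a2 and Foxa2 lie high on both axes, Col3a1 and Igf2 lie high on the cortical axis alone, and Npvf lies low on the cortical axis and high on the hippocampal axis.

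The genes that were higher in both regions, at least 4-fold in each, were named after their values were seen. The leptin receptor Lepr had 3 counts in the cortical control and was at 157 CPM with N+F, a count ratio of 3179 (95% counting interval 1087 to 15415), and it was at 0.562 and 115 CPM in the hippocampal pair. Kng1, the precursor of bradykinin, had 0 counts in both controls and was at 10.6 CPM in cortical (at least 215-fold higher) and 54.1 CPM in hippocampal N+F glia. The neuropeptide gene Nps went from 0 to 6.26 CPM in the cortical pair (at least 127-fold) and was at 0.120 and 82.6 CPM in the hippocampal pair. Fbn2, a fibrillin of elastic fibres, was at 0.329 and 30.6 CPM in cortical and 1.15 and 29.9 CPM in hippocampal glia, nearly the same levels. Medag, first described in adipocytes, was at 0.346 and 19.9 CPM and at 1.499 and 51.4 CPM. Postn, a matrix protein and a fibroblast marker, was at 0.478 and 25.6 CPM and at 1.75 and 25.5 CPM. Factor V, F5, was far higher in hippocampal (1.53 to 449 CPM) than in cortical glia (1.38 to 13.2 CPM), as was the imprinted gene Nnat (1.54 to 452 against 3.94 to 24.1 CPM). Further members were the nerve cell factor Npy (0.329 to 4.37 CPM), the interneuron factor Lhx6 (0.0988 to 5.14 CPM), the apoptosis gene Pmaip1 (5.48 to 54.7 CPM), the necroptosis kinase Ripk3 (1.05 to 15.0 CPM) and Masp1.

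The 16 genes lower in both regions, a count near the share of all genes, are named without reading a theme from them. They included immune genes and astrocyte genes. Acod1, which makes itaconate, was at 9.26 CPM in the cortical control and 0.562 CPM with N+F and at 4.55 and 1.42 CPM in the hippocampal pair. Tnf (-1.07 in hippocampal glia), Cxcl5, the formyl peptide receptor Fpr1 (-1.14 in cortical and -1.06 in hippocampal glia) and Cx3cr1 (-1.001 and -1.03) were the other immune genes. The glutamine transporter Slc38a3 was at 429 and 145 CPM in cortical glia and 335 and 153 CPM in hippocampal glia, and the zinc transporter Slc39a12 at 60.9 and 20.4 CPM and 36.2 and 16.9 CPM. Aldoc and the kinase Map2k4 (119 to 56.1 CPM) were lower too, as were Rapgef3, Cyp4f14, Acox2, Syt12, the predicted gene Gm7120 and Hist2h2aa1, a histone gene with near-identical copies. Tmem254a was lower and its copy Tmem254c higher in both regions, and because reads may be split between them both values are uncertain.

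Promoter windows from RefSeq (build GRCm38.p6, 250 bases before to 50 bases after each gene's start) were searched on both strands for AAAGGTCA, the response element that Nurr1 binds as a monomer, and for the forkhead words TGTTTAC and TATTTAC. Over all 32851 windows 7.91% held at least 1 of them (1.51%, 3.65% and 3.04% for each word). Of the 46 genes at least 4-fold higher in both regions, the delivered pair included, 34 matched the table, and 3 of their 44 windows held a word, in Rln3, Postn and Ifitm1. Of the 12 highest cortical genes 6 matched, with 0 of 10 windows, and of the 12 lowest 8 matched, with 1 of 11 windows, in Paqr8. These are descriptions of short windows, and a share of so few windows near that of all windows is not a result about these genes. Shown for reading are the 250 bases before the start of Lepr (the upstream of its starts, chr4:101717157-101717406, plus strand), as the shared gene with the largest cortical ratio after Nid1, of Rln3 (chr8:84044980-84045229, minus strand), as the shared gene with the Nurr1 word, and of Paqr8 (the downstream of its starts, chr1:20917590-20917839, plus strand), as the gene with a forkhead word among the 12 lowest. Capitals mark the words found. Rln3, the relaxin-3 neuropeptide gene, had 0 counts in the cortical control and was at 3.35 CPM with N+F, at least 67.8-fold higher, and was at 0.709 and 12.1 CPM in the hippocampal pair.
Lepr: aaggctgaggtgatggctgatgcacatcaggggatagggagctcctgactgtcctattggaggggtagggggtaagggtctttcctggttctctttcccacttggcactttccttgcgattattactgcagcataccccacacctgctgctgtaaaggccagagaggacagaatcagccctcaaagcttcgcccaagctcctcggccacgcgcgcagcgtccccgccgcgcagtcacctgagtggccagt
Rln3: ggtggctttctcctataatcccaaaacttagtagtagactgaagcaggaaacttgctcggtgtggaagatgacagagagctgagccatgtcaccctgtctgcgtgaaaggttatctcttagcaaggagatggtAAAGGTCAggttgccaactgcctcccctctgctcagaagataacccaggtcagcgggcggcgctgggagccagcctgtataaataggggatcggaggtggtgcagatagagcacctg
Paqr8: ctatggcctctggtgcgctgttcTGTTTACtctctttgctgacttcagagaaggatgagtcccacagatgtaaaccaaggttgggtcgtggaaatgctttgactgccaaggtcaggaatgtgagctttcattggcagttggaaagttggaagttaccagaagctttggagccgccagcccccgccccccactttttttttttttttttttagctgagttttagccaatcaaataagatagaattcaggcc

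The genes with the most different ratio in the 2 regions, among those at least 2-fold different and at 10 CPM or more in cortical glia, were Col3a1, Igf2, Aqp1, H19 and Mbp on the side higher in cortical glia. On the other side were, among others, Nnat, F5, Npvf and Ndst3. The neuropeptide gene Npvf was at 66.5 CPM in the control and 13.9 CPM with N+F in cortical glia, but at 17.7 and 123 CPM in hippocampal glia. These differences between regions rest on 1 library per condition and were not tested. The 6 most abundant genes of the cortical N+F library were Lcn2, the ferritin heavy chain Fth1 (7492 to 8298 CPM), Fn1, the elongation factor Eef1a1 (3674 to 6459 CPM), cathepsin D, Ctsd (3276 to 6224 CPM) and Pea15a (12759.6 to 5924 CPM). Of these Fn1 and Pea15a differed by at least 2-fold.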

How the data were processed

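The labels' protocols state extraction with Trizol and SMARTER mRNA-seq libraries made from 1.3 µg of RNA. Per the submitters' processing notes the tools were TopHat, HISAT2 and edgeR and the build was human hg19, yet the symbols are those of mouse. No coordinates of the deposited files are therefore given, and the counter, its use of strand and all versions are not given in the sources used here. Values deposited by the authors are whole-number counts per gene symbol. The culture file held 36780 lines. Repeats of a symbol made up 12238 of them, and summing them left 24542 symbols. If a read was counted in several lines, the sum counts it more than once, and the counting intervals are then too narrow. A difference in 1 line can also be diluted by the others, as for Nr4a2. The number of columns left unused was 0, and groups were taken from the sample titles. The 7 tissue libraries were not analysed here.

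Counts were scaled to CPM of the library total, and 1 CPM was added before taking log2. Folds against 0 counts were set against a floor of 3 counts per library and are lower bounds, and ratios resting on 1 to 3 counts have an exact 95% interval. The secondary fit used edgeR 4.0.16 in R 4.3.3 (filterByExpr, TMM, quasi-likelihood test, Benjamini-Hochberg adjustment, threshold 0.05), with DESeq2 1.42.0 as an alternative, and both calculations were tested on simulated data. Other pseudocounts (0.1 and 5 CPM), filters, scalings and the highest line per symbol were tried.

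The comparison, the 29 pathway lists and the 14 marker lists were chosen with earlier results of these data known. Named genes were the delivered genes, the 12 highest and 12 lowest log2 ratios without predicted genes, up to 4 members of each list with the largest ratio, the 5 genes each way that differed most between regions and the 6 most abundant genes. Genes shared by both regions, and Gfap and Gja1, were named after their values were seen. Some genes that this rule names are not reported here.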

Additional observations from a re-analysis of the deposited data

Results flagged for a closer look

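For 10 named genes the cortical and the hippocampal pair moved at least 2-fold in opposite directions. Over all 13479 genes that passed in both, 26 were higher in cortical and lower in hippocampal glia and 75 the reverse. The named genes, picked mostly for large ratios, do not give that balance of directions. Each pair is 1 library per condition, so the differences were not tested. The values are the cortical minus the hippocampal log2 ratio of (CPM + 1). Of microglial and lysosomal genes higher in cortical and lower in hippocampal N+F glia, Ccl6 had a difference of 4.42, Ctss of 3.44, Lyz2 of 3.23 and Tyrobp, a signalling adaptor, of 2.93. Emp1 had a difference of 5.22, the myelin gene Mag of 5.17, Gadd45b of 4.84 and Mmp9 of 4.69. Lower in cortical and higher in hippocampal N+F glia were Npvf, with a difference of -4.90, and the potassium channel gene Kcnj13 of choroid plexus and pigment epithelium, with -3.27.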

How the results depend on the processing

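No paired analysis was possible because each culture group is 1 library and the culture columns carry no replicate numbers. With a pseudocount of 5 CPM the cortical counts were 1073 higher and 1239 lower, and the genes shared with hippocampal glia 101 higher and 5 lower. A pseudocount of 0.1 CPM gave 419 shared genes higher and 30 lower, and keeping the highest line of a symbol gave 41 shared genes lower. The other settings kept these counts within 1.5 times the values in the report. Of 213 named genes that differed at least 2-fold, 176 did so the same way with a pseudocount of 5 CPM, 202 with DESeq2 size factors, 205 with TMM scaling, 212 with the highest line of a symbol and 213 under each of the other 3 settings, and none reversed under these settings. Repeat lines matter for single genes, since with the highest line 22 named genes moved over 1.5-fold, among them Nr4a2 (log2 ratio 2.63 to 4.99), Pfkfb3 (2.54 to 4.68), Fbln2 (6.99 to 9.04), Mag (4.14 to 2.51) and Rapgef3 (-1.28 to -0.41). Scaling moved list counts most for proliferation genes (7 higher, and 14 with either other scaling) and interferon-stimulated genes (14 lower, and 9). Smaller moves included those of Toll-like receptor and NF-kB genes (1 higher, and 4) and disease-associated microglia genes (12 higher, and 15). Others were those of reactive astrocyte genes (3 lower, and 1) and unfolded protein response genes (3 higher, and 4 or 5). In the additive fit, edgeR called 0 genes, DESeq2 called 408 higher and 67 lower, and the 4 amyloid beta libraries alone gave 3 higher (Foxa2, Kng1 and Nps). Leaving out each of the 6 libraries in turn gave 0 to 0 calls in either direction, with 439 to 4596 genes at an unadjusted p under 0.05. The cause of these differences was not tested. Depth limits genes under 10 CPM most, and with 1 library per condition the variation between cultures was not measured.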

Other observations

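Ribosomal protein genes took 2.72% of the counts of the cortical N+F library and 1.25% of those of the cortical control, against 1.60% and 1.39% in the hippocampal pair. The pair Tmem254a and Tmem254c, summed, was at 10.5 CPM in the cortical control and 14.7 CPM with N+F, and at 12.4 and 28.2 CPM in the hippocampal pair.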
